A study of Mus musculus with 2 samples.

Results

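The cells described here are 143 neurons of the mouse preoptic area that carried galanin (Gal), tachykinin 2 (Tac2, the neurokinin B precursor), cerebellin 2 (Cbln2) and the adhesion gene Amigo2 together. They were chosen by counts of unique molecular identifiers (UMIs, 1 for each captured RNA molecule) in 2 steps. Neurons were first taken as cell barcodes with at least 2000 genes, under 20% mitochondrial UMIs, at least 10 UMIs of Snap25 and Syt1 together and at most 1 UMI of the oligodendrocyte genes Mog and Ermn together. Of these, the cells with at least 30 Gal, 30 Tac2, 5 Cbln2 and 3 Amigo2 UMIs were kept and are called the members. They were 143 of 8072 neurons and of 18368 barcodes in all.

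Single cells were sequenced from this region of C57BL/6J mice aged 9 to 10 weeks and described as wild type, with males and females pooled in each of 2 libraries. SD came from mice kept awake for 6 h, and SD+RS from mice that had 2 h of recovery sleep after the same 6 h of sleep deprivation. Both were prepared by Act-seq, a dissociation with a transcription blocker, on the 10x Genomics platform, to find neurons active in rebound sleep. How many mice made up a pool was not stated in the labels, all groups had been deprived of sleep, and with 1 library in each group no test between groups was possible. Every interval given is a 95% interval and covers counting error only.

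The preoptic area, at the front of the hypothalamus, holds inhibitory neurons that project to arousal centres and promote sleep, and many of them use galanin beside GABA. Neuropeptides such as galanin and neurokinin B are cut from precursors, packed in dense-core vesicles and act through G protein-coupled receptors on other cells. The receptors a neuron carries decide which arousal signals, such as noradrenaline, serotonin or opioids, can act on it, and its ion channels shape how it fires.

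There were 72 members in SD and 71 in SD+RS, or 1.84% (1.44 to 2.31) and 1.71% (1.34 to 2.15) of the neurons of each. Their median depth was 35443.5 UMIs (lowest 12954, highest 58499) in SD and 33740 (8853 to 55115) in SD+RS, against 22096 and 21668 in the other neurons. Cells with Y-linked but no Xist UMIs made up 40.3% of the members and 53.5% of the other neurons in SD, and 7.04% and 20.7% in SD+RS. The mix of sexes therefore moved with the library, and values within each sex stand beside the main difference between libraries. The libraries had 23 barcodes in common, none of them a member.

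The 4 genes of the rule describe the members and are no finding. The members held 42 to 589 Gal UMIs in SD and 43 to 488 in SD+RS, with medians of 246.5 and 189, and 31 to 519 and 33 to 441 Tac2 UMIs, with medians of 175 and 156. Neurons that failed on Cbln2 alone numbered 31 in SD and 30 in SD+RS; they had at most 4 and 3 Cbln2 UMIs, while the lowest members had 9 and 5. Those that failed on Tac2 alone numbered 24 and 32, with at most 26 and 23 Tac2 UMIs. Those that failed on Gal alone were 9 and 3 (at most 29 and 1 Gal UMIs), and on Amigo2 alone 12 and 2 (at most 2 and 1 Amigo2 UMIs). Cartpt, the fifth marker named for these cells, was not part of the rule and was found in 70 of 72 and 67 of 71 members.

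The counts bore out the label of GABA neurons. The GABA genes Slc32a1, Gad1 and Gad2 summed to 2133 CPM in SD members and 2195 CPM in SD+RS members, against 1209 and 1211 CPM in the other neurons. CPM are counts per 1000000: the UMIs of a gene summed over cells, scaled to the summed UMIs of those cells. Slc17a6, the vesicular glutamate transporter of the hypothalamus, had 1 UMI in all SD members and 4 in all SD+RS members. Its relatives Slc17a7 and Slc17a8 and the cholinergic genes Chat and Slc18a3 had 0 UMIs in both. Of glial markers, 7 oligodendrocyte genes summed to 99.9 and 77.5 CPM (other neurons 151 and 103 CPM) and 7 astrocyte genes to 292 and 293 CPM (other neurons 400 and 365 CPM), and none of these 14 was at 0. The 6 microglial genes summed to 20.3 and 21.3 CPM (other neurons 43.6 and 35.5 CPM), the 5 endothelial genes to 7.17 and 8.94 CPM (60.9 and 44.2 CPM) and the 5 oligodendrocyte precursor genes to 5.57 and 2.98 CPM (33.4 and 21.0 CPM). Of these 16 genes, Csf1r, Cx3cr1, P2ry12, Flt1 and Pdgfra were at 0 UMIs in the members of both libraries.

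The members also grouped together when the genes of the rule were left out. With those 4 genes and all activity, stress and clock genes removed, 138 of 143 members (96.5%) fell in 1 of 42 clusters of neurons, 71 of 72 in SD and 67 of 71 in SD+RS, and the number was 138 at both other resolutions tried. That cluster held 171 neurons, so 33 of its cells missed the rule, with a median depth of 21365 UMIs in SD and 22753 in SD+RS. Among those 33, Zic1 was found in 20 of 21 SD and 12 of 12 SD+RS cells, and Adra2a in 19 of 21 and 10 of 12. The clusters rest on the same cells, so this describes how they group.

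Against all other neurons, 247 of 9537 genes (2.59%) were at least 2-fold higher in the members in both libraries, and 619 (6.49%) were at least 2-fold lower in both. "Higher" and "lower" below mean past that 2-fold line in both libraries. Genes entered with 20 UMIs seen in the members of each library, or expected there from the other neurons. The members were chosen on these same cells, so these shares are the background beside the gene groups and nothing is read from them. The median gene stood at -0.10 in SD and -0.08 in SD+RS on the log2 scale. Log2 values are ratios of summed CPM, members over other neurons, with SD given first.

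Of 26 peptide precursor genes measured, 6 were higher, Gal and Tac2 of the rule among them, and 16 lower. Cartpt, the precursor of a peptide that acts in feeding and reward, stood at 2426 CPM in SD and 2501 CPM in SD+RS, against 241 CPM in the other neurons of both (log2 3.33, 3.29 to 3.37, and 3.37, 3.33 to 3.41). Single members held a median of 70.5 and 61 Cartpt UMIs, with 2 and 4 cells at 0 and a highest cell of 331 and 347. Nearly every member thus carried it, at widely different levels.

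Calcb, which encodes a calcitonin gene-related peptide, was at 14.7 and 26.0 CPM in the members and at 0.388 and 0.535 CPM in the other neurons (log2 5.25, 4.54 to 5.96, and 5.60, 5.04 to 6.17). Its paralog Calca stood at 34.6 and 41.3 CPM against 8.48 and 8.95 CPM. Both lie on chromosome 7 of mm10, Calca at chr7:114631478-114636357 on the minus strand and Calcb at chr7:114718643-114723365 on the plus strand. The labels do not say how reads that fit both were counted, so the share of each is uncertain. Calca was found in 36 of 72 and 35 of 71 members and Calcb in 22 and 31. Pnoc, the precursor of the opioid-like peptide nociceptin, was at 406 and 469 CPM against 179 and 189 CPM (log2 1.18 and 1.31), but at 0.83 and 0.96 when the other neurons were limited to GABA-type cells.

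The 16 lower peptide genes include precursors that mark other hypothalamic neurons. Adcyap1, the precursor of PACAP, had 0 UMIs in the members of both libraries, which at a floor of 3 counts over the summed cells is at least 31.7-fold lower in SD. Cck had 1 UMI in each library against 114 and 82.7 CPM in the other neurons, and Trh, the thyrotropin-releasing hormone precursor, 2 in each against 112 and 102 CPM. Oxt, the oxytocin precursor, was at 27.5 and 27.7 CPM against 6319 and 8356 CPM. Its share of members with a UMI, once each cell was thinned to 2000 UMIs, was 5.74% and 5.53%. In astrocytes, which do not make it, the share was 24.9% and 17.5%. Astrocytes had a median depth of only 3500 and 3162.5 UMIs, so thinning removed far more of a member's UMIs than of an astrocyte's. Whether the Oxt UMIs of the members were background was not tested. Penk, Tac1 and Sst, the precursors of enkephalin, substance P and somatostatin, had 10, 3 and 3 UMIs in SD members. In SD+RS a single member held 93.3% of the Penk, 92.3% of the Tac1 and 91.7% of the Sst UMIs. Nts, the neurotensin precursor, missed the 2-fold line in SD+RS (log2 1.18 and 0.74): its UMIs per member ran from 0 to 189 in SD and from 0 to 231 in SD+RS, with medians of 27.5 and 20.

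Genes for cutting and packing peptides were mostly within 2-fold of other neurons, with 2 of 19 higher and 2 lower. Vgf, a granin-family precursor that activity can also induce, was at 1128 and 1281 CPM against 321 and 351 CPM. Chgb, a granin of dense-core vesicles, was at 654 and 714 CPM against 277 and 305 CPM. The 2 lower genes were the convertase Pcsk2 (log2 -1.38 and -1.36) and the vesicle priming gene Cadps2 (-1.19 and -1.53).

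**Figure D1:**
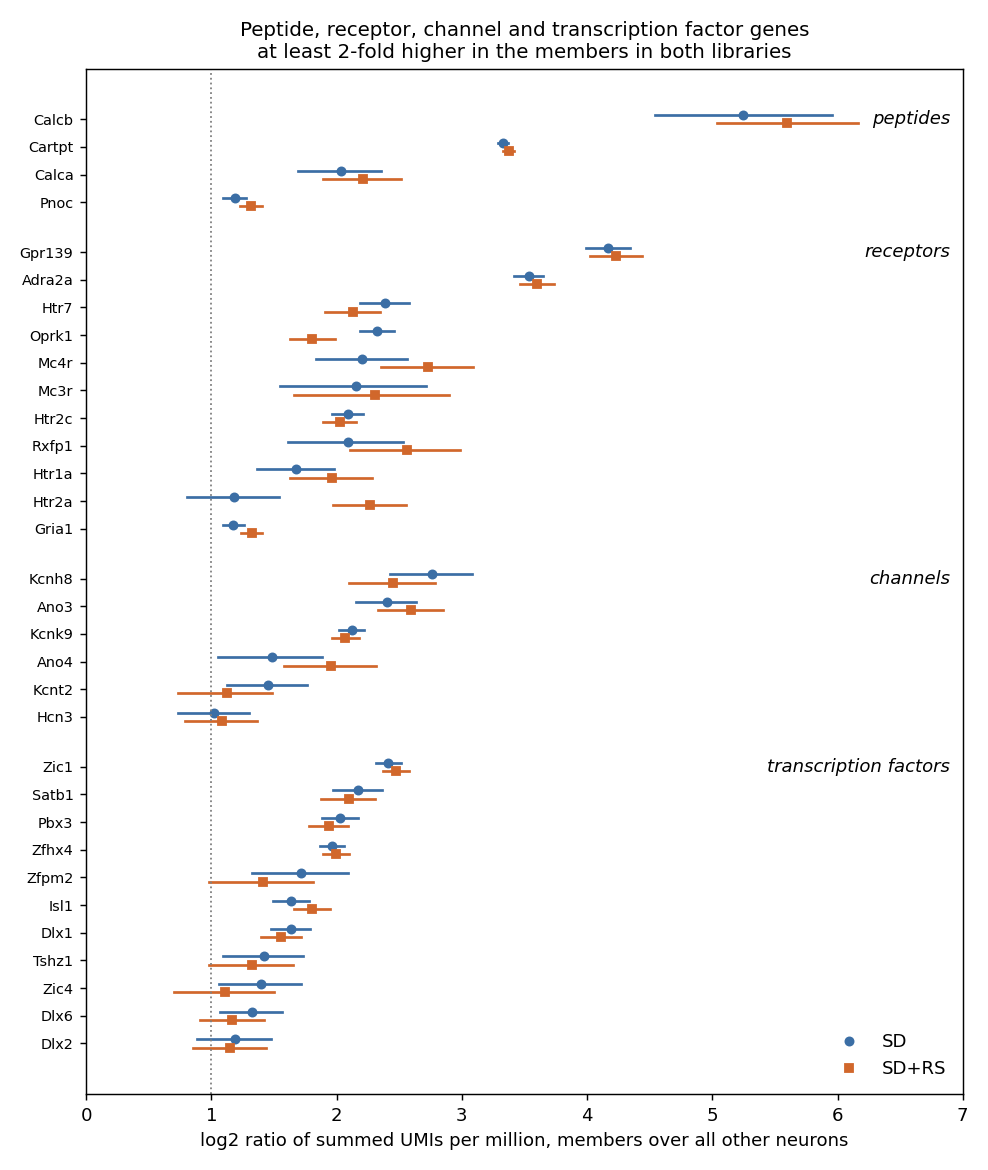
Log2 ratio of summed CPM in the members over all other neurons (x axis) for named peptide, receptor, channel and transcription factor genes (y axis) at least 2-fold higher in both libraries, rule genes left out. Blue circles are SD, orange squares SD+RS, bars are 95% intervals for counting error and the dotted line marks 2-fold. Calcb, Gpr139, Adra2a and Cartpt lie above 3 in both libraries.

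Of 18 receptor genes for amines and other small transmitters, 5 were higher and 9 lower. Adra2a (mm10 chr19:54044151-54048982, plus strand) encodes the Gi-coupled alpha-2A adrenoceptor, through which noradrenaline quiets many neurons. It was at 305 CPM (284 to 328) in SD members and 247 CPM (227 to 267) in SD+RS members, against 26.4 and 20.3 CPM in other neurons (log2 3.53, 3.41 to 3.65, and 3.60, 3.46 to 3.73). It had a UMI in 71 of 72 and 69 of 71 members, with medians of 10 and 8 UMIs per cell and at most 28 and 19. Thinned to 2000 UMIs, the share of cells with an Adra2a UMI was 45.0% and 37.0% in members, 4.49% and 3.56% in other neurons and 0.218% and 0.111% in oligodendrocytes. Astrocytes, which transcribe adrenoceptors, had 7.42% and 8.21%.

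The other 4 higher genes of that group were serotonin receptors. Htr2c (Gq-coupled) was at 241 and 215 CPM against 56.7 and 52.9 CPM, with medians of 7 and 6 UMIs per member and 2 and 4 cells at 0. Htr7 (Gs-coupled) was at 99.5 and 80.5 CPM against 19.1 and 18.4 CPM and had a median of 3 UMIs in both libraries. The next pair had medians of 0 or 1 UMI per member, a depth at which 0 UMIs does not show that a cell lacks the receptor. Htr1a (Gi-coupled, log2 1.68 and 1.96) had 0 UMIs in 27 of 72 and 30 of 71 members, and Htr2a (Gq-coupled, log2 1.18 and 2.27) had 0 UMIs in 40 and 24. Htr2a stood at 0.92 in SD with looser minimums of the rule genes. Htr1b, a Gi-coupled receptor of axon terminals, was lower (log2 -3.05 and -2.53), as were the histamine receptors Hrh1 and Hrh3, the muscarinic receptors Chrm2 and Chrm3, the dopamine receptor Drd2, the adrenoceptor Adra2c, the ATP receptor P2rx4 and the cannabinoid receptor Cnr1 (log2 -1.47 and -1.50).

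Among 40 peptide, hormone and orphan receptor genes, 5 were higher and 17 lower. Gpr139, an orphan receptor that responds to aromatic amino acids (mm10 chr7:119140747-119184603, minus strand), was at 164 and 121 CPM against 9.15 and 6.44 CPM (log2 4.17, 3.99 to 4.34, and 4.23, 4.02 to 4.44). It had a UMI in 71 of 72 and 62 of 71 members. Oprk1, the Gi-coupled kappa opioid receptor, was at 201 and 119 CPM against 40.1 and 34.1 CPM, with medians of 6 and 4 UMIs per member and 1 and 8 cells at 0. Adra2a, Gpr139 and Oprk1 all lay in most members. The Gs-coupled melanocortin receptors of the feeding system were sparser: Mc4r (log2 2.20 and 2.73) had a UMI in 54.2% and 60.6% of members and Mc3r (log2 2.15 and 2.31) in 26.4% and 21.1%. Rxfp1, a relaxin receptor (log2 2.09 and 2.56), came from 16 of 72 and 15 of 71 members, with at most 9 and 14 UMIs in a cell.

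Of receptors for the members' own peptides, those named next for galanin and neurokinin B had few UMIs. Oprl1, the receptor for nociceptin, had more, and its UMIs are given below with the differences between libraries. Galr1, a galanin receptor, had 0 UMIs in SD members and 2 in SD+RS members, against 9.66 and 8.21 CPM in other neurons. Tacr3, the neurokinin B receptor, had 2 and 0 UMIs against 7.08 and 6.80 CPM, and Tacr1, the substance P receptor, 2 and 3 UMIs. Too few UMIs were expected of Galr1 and Tacr3 for them to enter the counts of lower genes. Adcyap1r1, the PACAP receptor, was lower (log2 -3.87 and -4.73), and Npy2r, a neuropeptide Y receptor, had 0 UMIs in SD and 10 in SD+RS, 8 of them in 1 cell. Prlr, the prolactin receptor, stood at 69.3 and 62.6 CPM (log2 -1.29 and -1.34), but at -0.77 in SD with looser minimums of the rule genes. Of 7 nuclear hormone receptor genes none was higher and 4 were lower: the oestrogen receptor Esr1, with 2 and 8 UMIs, the glucocorticoid receptor Nr3c1 (log2 -1.82 and -1.79), the progesterone receptor Pgr (-1.20 in both, and -0.82 in SD+RS in cells with Xist and no Y-linked UMIs) and the thyroid hormone receptor Thrb.

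Of 38 genes for GABA, glycine and glutamate receptors, 1 was higher and 10 lower. Gria1, the AMPA receptor subunit GluA1, was at 506 and 551 CPM against 224 and 220 CPM and was found in every member. Gria3, the subunit GluA3, was lower (log2 -2.57 and -3.01), as was Grm5, a Gq-coupled glutamate receptor (log2 -2.16 and -2.33). The GABA-A subunits Gabrg1 (log2 -3.06 and -2.75), Gabrq (-2.87 and -2.33) and Gabra2 (-2.33 and -1.90) were lower.

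Of 46 potassium channel genes, 3 were higher and 9 lower. Kcnk9, the acid-sensitive leak channel TASK-3 (mm10 chr15:72501089-72546340, minus strand), was at 369 CPM (345 to 393) and 324 CPM (301 to 348) against 84.7 and 77.2 CPM, with medians of 12 and 11 UMIs per cell and 1 and 3 cells at 0. Kcnk2, the mechanosensitive leak channel TREK-1 of the same family, was lower, with 4 and 8 UMIs in all members against 91.1 and 80.8 CPM in other neurons. Kcnh8, a voltage-gated channel of the Elk type (log2 2.76 and 2.45), and Kcnt2, a sodium-activated channel (log2 1.45 and 1.12), were higher. Kcnt2 stood at 0.94 in SD+RS against GABA-type neurons alone. Kcnq3 (log2 -1.83 and -1.79) and Kcnq5 (-1.84 and -1.52), subunits of the M-current that muscarinic receptors close, were lower.

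Of 33 sodium, calcium and HCN channel genes, 1 was higher and 5 lower. The pacemaker subunit Hcn3 lay at the edge (log2 1.02 and 1.08), at 0.69 in SD in cells with Xist and no Y-linked UMIs. The R-type calcium channel gene Cacna1e (log2 -3.43 and -4.34) and the auxiliary subunit Cacna2d1 (-4.06 and -4.46) were lower. Of 34 other channel genes, 2 were higher and 6 lower. The higher ones were Ano3 (log2 2.40 and 2.60) and Ano4 (log2 1.48 and 1.96) of the anoctamin family.

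**Figure D2:**
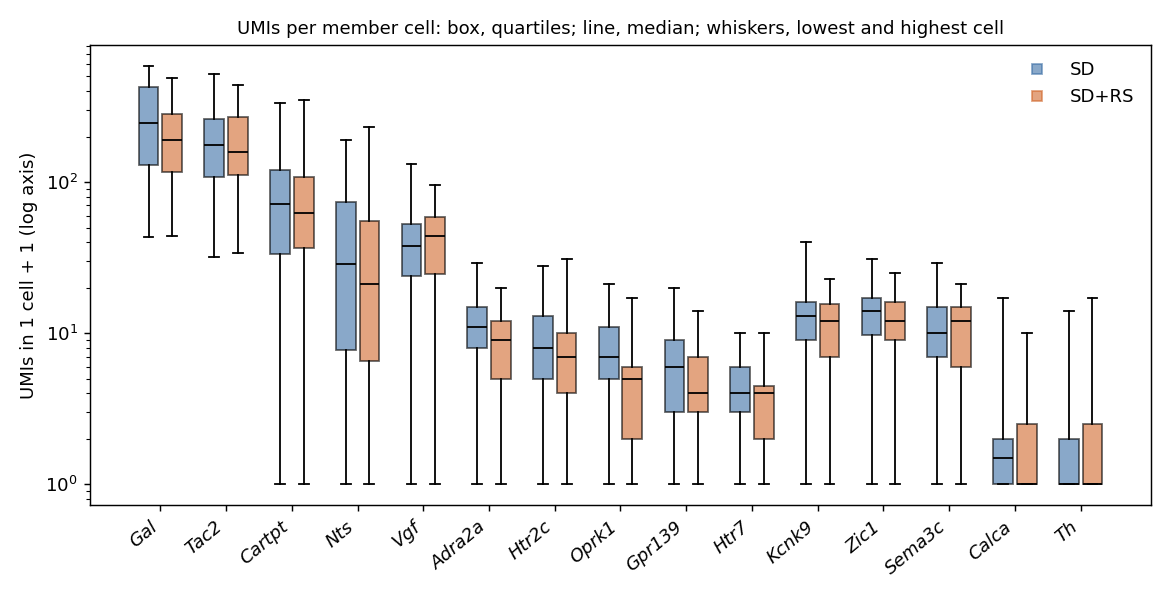
UMIs of 15 genes (x axis) in single members, plotted as UMIs + 1 on a log axis (y axis), with SD in blue and SD+RS in orange. Boxes span the quartiles, lines are medians and whiskers reach the lowest and highest cell of 72 and 71. The boxes of Adra2a, Kcnk9 and Zic1 lie well above 0 UMIs, while the median of Th is 0 in both libraries.

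Of 76 transcription factor genes, 12 were higher and 40 lower. Zic1, a zinc finger factor of the developing forebrain (mm10 chr9:91358058-91365810, minus strand), was at 384 and 358 CPM against 72.1 and 64.5 CPM, with medians of 13 and 11 UMIs per cell and 1 and 3 cells at 0. Its relative Zic4 (log2 1.40 and 1.11) was higher too. Zic4 overlaps Zic1 on the other strand, at chr9:91362413-91389348, and the labels do not say whether counting used strand, so reads of the overlap are uncertain. Satb1, a chromatin organizer (log2 2.17 and 2.10), the homeodomain factors Pbx3 (2.03 and 1.94), Zfhx4 (1.96 and 1.99) and Isl1 (1.64 and 1.80), and the Dlx factors of forebrain GABA neurons, Dlx1 (1.63 and 1.56), Dlx6 (1.32 and 1.17) and Dlx2 (1.19 and 1.15), were higher. Among the 40 lower genes, Sp9, a zinc finger factor of forebrain interneurons, had 0 UMIs in the members of both libraries, which makes it at least 7.90-fold and 8.68-fold lower. Lhx6 and Lhx8, factors of the medial ganglionic eminence, had 1 and 4, and 3 and 3 UMIs. Nkx2-1, Foxp2, Otp, Meis2 and Six3 had at most 7 UMIs in any library.

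Of 94 genes that organize synapses, bind cells or guide axons, 18 were higher (Cbln2 and Amigo2 of the rule among them) and 32 lower. Sema3c, a secreted guidance cue, was at 301 and 291 CPM against 27.0 and 24.5 CPM, with medians of 9 and 11 UMIs per cell. Serpine2, a secreted protease inhibitor, was at 867 and 790 CPM against 113 and 106 CPM. The semaphorin Sema6d (log2 2.95 and 2.89), the contactins Cntn4 (2.58 and 2.45) and Cntn6 (2.08 and 2.17), Cntnap4 (2.29 and 2.21) and the protocadherin Pcdh15 (2.31 and 2.24) were higher as well. Of the relatives of Cbln2, Cbln4 was lower (log2 -2.68 and -2.46) and Cbln1 had 4 and 1 UMIs against 27.9 and 21.9 CPM.

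Of 46 genes of G protein, cyclic nucleotide and kinase signalling, 5 were higher and 10 lower. Prkcd, protein kinase C delta, was at 49.4 and 40.9 CPM against 7.24 and 7.03 CPM. Adcy8, a calcium-stimulated adenylyl cyclase (log2 1.84 and 2.05), and Rgs10, which speeds the switching-off of Gi proteins (1.61 and 1.64), were higher. Of 10 transmitter genes 1 was higher: Th, the first enzyme of dopamine synthesis, at 35.0 and 53.2 CPM against 13.3 and 15.7 CPM, with 49 members at 0 in each library and at most 13 and 16 UMIs in a cell. Ddc, the next enzyme of that path, had 3 and 4 UMIs against 33.1 and 38.2 CPM. Of 18 calcium-binding genes 1 was higher and 7 lower, among the latter Calb2, calretinin (log2 -5.83 and -3.96), Nrgn, neurogranin (-5.34 and -4.88), and Hpcal1 (-3.36 and -3.21).

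Outside the lists, the gene farthest above the other neurons in both libraries was Sntb1, a syntrophin of the membrane skeleton, at 85.2 and 90.7 CPM against 1.82 and 1.33 CPM (log2 5.55, 5.25 to 5.85, and 6.09, 5.76 to 6.42), with a UMI in 61 of 72 and 62 of 71 members. It was followed by Defa29 (log2 5.27 and 5.54, in 13 and 16 members), Emp3 (5.36 and 4.86) and Fzd5, a Wnt receptor (4.78 and 4.41, in 62 and 57 members). Farthest below were Stxbp6 and Rnf152, each with 1 UMI in each library.

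The members were next set beside neurons that share at least 1 of their peptides: 500 and 546 other neurons with at least 30 Gal UMIs and 263 and 296 with at least 30 Tac2 UMIs. The 2 groups overlap. Neurons that failed the rule on Cbln2 alone (31 and 30) or on Amigo2 alone (12 and 2) carried both peptides and are in both groups. Against the Gal-rich neurons 206 of 9412 genes (2.19%) were higher and 510 (5.42%) lower in both libraries, and against the Tac2-rich neurons 259 of 9404 (2.75%) and 520 (5.53%). Of the 33 peptide, receptor, channel and transcription factor genes above all other neurons, 22 were also at least 2-fold above both of these groups. All 5 aminergic receptors were among the 22. The matching share of all 247 higher genes is not given here. These counts, and those of the other classes below, therefore describe the genes named and are not read as a trait of their classes. Adra2a was at 63.6 and 45.5 CPM in Gal-rich and 51.3 and 30.3 CPM in Tac2-rich neurons. Zic1 was at 75.7 and 66.5 CPM in Gal-rich and 42.7 and 25.5 CPM in Tac2-rich neurons. Both levels are far below those of the members given above.

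The 11 others did not reach 2-fold in both libraries against at least 1 of the groups. Pnoc, Kcnt2, Dlx1, Dlx2 and Dlx6 missed it against both, the 3 Dlx genes with log2 values between 0.44 and 0.98. Oprk1, Rxfp1, Hcn3, Isl1 and Zfpm2 missed it against Gal-rich neurons alone (Isl1 at log2 0.75 and 1.06), and Tshz1 against Tac2-rich neurons alone. Rxfp1 stood at 15.2 and 12.9 CPM in Gal-rich neurons, with members over Gal-rich at log2 0.27 and 0.75. Oprk1 was at 80.0 and 68.8 CPM there (log2 1.33 and 0.79) and Pnoc at 296 and 257 CPM (log2 0.46 and 0.87). Calcr, the calcitonin receptor of other preoptic galanin neurons, was lower than in Gal-rich neurons, at 54.9 and 34.9 CPM against 133 and 130 CPM. Brs3, an orphan bombesin-type receptor, had 1 and 2 UMIs in the members against 58.5 and 50.6 CPM. The same limit holds for some higher genes outside these classes. Of 5 signalling genes 3 were at least 2-fold above both groups, and Rgs10 was not. Of 2 peptide-processing genes 1 was, and Chgb was not. Of 16 synapse and guidance genes outside the rule 14 were.

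**Figure D3:**
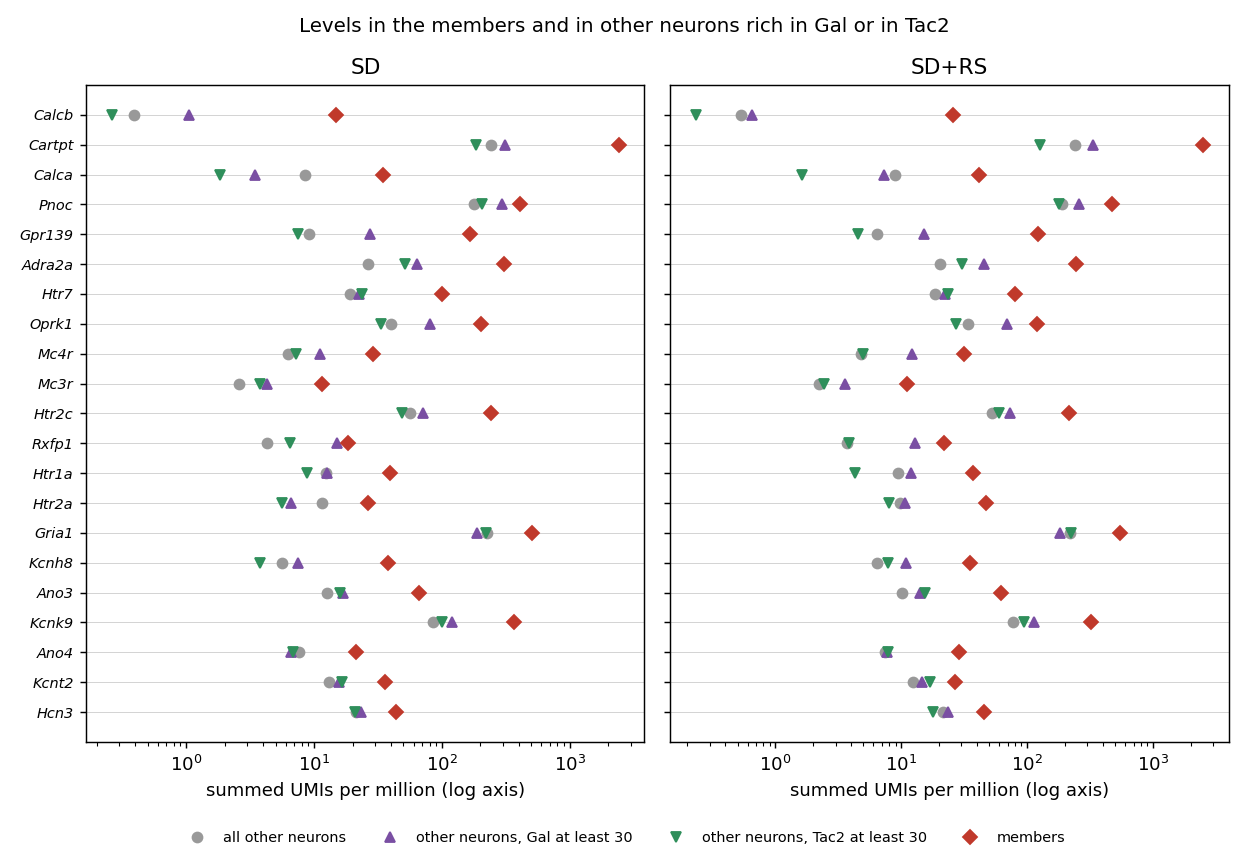
Summed CPM on a log x axis, of peptide, receptor and channel genes (y axis) in the members (red diamonds), in other neurons with at least 30 Gal UMIs (purple), with at least 30 Tac2 UMIs (green) and in all other neurons (grey), SD left and SD+RS right. The genes drawn are those at least 2-fold higher in the members in both libraries. The members lie right of all 3 comparison groups for each gene, by the least for Rxfp1 against Gal-rich neurons in SD.

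Between the libraries the activity genes differed most. The summed level of 14 core immediate early genes, which neurons transcribe on firing, was 47.8 CPM (39.6 to 57.1) in SD members and 803 CPM (767 to 840) in SD+RS members, a log2 ratio of 4.07 (3.80 to 4.35). In the other neurons it was 274 and 257 CPM. Within members with Xist and no Y-linked UMIs (39 and 64 cells) the log2 ratio was 4.03, and within those with Y-linked and no Xist UMIs (29 and 5 cells) it was 4.57. The 33 neurons of the same cluster that missed the rule had 58.3 and 676 CPM, and so stood in the same order. Among those 33, Fos was found in 3 of 21 SD and 10 of 12 SD+RS cells. Among the members outside the cluster it was found in 0 of 1 and 1 of 4.

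Over 8358 genes with at least 50 UMIs in the members of both libraries together, 66 (0.79%) were at least 2-fold higher in SD+RS and 31 (0.371%) at least 2-fold lower. In the other neurons these were 35 (0.229%) and 191 (1.25%) of 15290 genes. The 2 sets of shares are not alike. In SD the other neurons held 90232197 UMIs and the members 2511478, so the same minimum let weaker genes in there, with less counting error at a given level. Of the 66, 20 were on the activity lists: all 9 core genes with enough UMIs and 11 of 27 others. The 14 core genes had 120 UMIs in SD members and 1885 in SD+RS members, so they met the minimum mostly through SD+RS. That all 9 passed upward was therefore largely set by the minimum and adds nothing to the summed level above. Outside all lists the largest ratios, SD+RS over SD, were those of Elk3, an Ets factor (log2 2.72, from 7 to 43 UMIs), Ier3 (2.10), Cited2 (1.69), Phlda1 (1.65) and Spata2l (1.64). Phlda1 stood at 0.30 with looser minimums of the rule genes. Cited2, a transcriptional coregulator, had 182 UMIs in 56 SD members and 548 UMIs in 64 SD+RS members, and its ratio in other neurons was -0.23. Rasd1, a small G protein of the signalling list, had 1 UMI in SD and 49 UMIs in 25 cells in SD+RS. On the list of stress and clock genes, 2 of 27 with enough UMIs passed 2-fold, Dbp (log2 -1.07) and Per3 (-1.12), both lower. In members with Xist and no Y-linked UMIs, Dbp stood at -0.48 and Per3 at -0.92. The clock genes Per1 and Nfil3, which were not on that list but are counted with the activity genes above, went the other way. In the same cells Per1 stood at 1.79 (21 and 109 UMIs) and Nfil3 at 1.94 (8 and 46 UMIs).

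Between the libraries, none of 22 peptide receptor, 8 aminergic receptor, 5 nuclear receptor and 34 fast receptor genes with enough UMIs passed 2-fold in either direction, where 0.79% of all genes passed upward and 0.371% downward. A count of 0 in lists of this size is near those shares. Of 38 potassium channel genes, 2 passed. The leak channel genes Kcnk3, TASK-1 (log2 1.28, 0.76 to 1.83, from 44 to 100 UMIs), and Kcnk10, TREK-2 (1.01, 0.37 to 1.66), passed it, Kcnk10 at 0.80 when cells were weighted equally. Pcsk1, the convertase that starts the cutting of many peptide precursors and is also on the activity list, had 40 and 76 UMIs (log2 1.02, 0.45 to 1.61, and 0.92 with doubled minimums of the rule genes). Lmo1 (log2 1.19) stood at 0.20 with looser minimums of the rule genes. Calb2 had 20 and 67 UMIs (log2 1.84), of which 1 cell held 10 in SD and 1 cell 23 in SD+RS, and the looser minimums gave -0.26.

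Some receptors stood apart without passing 2-fold. Oprk1 had 504 UMIs (201 CPM) in SD and 280 UMIs (119 CPM) in SD+RS, a log2 ratio of -0.75 (-0.97 to -0.54), with -0.23 in other neurons. It was -0.72 in members with Xist and no Y-linked UMIs and -1.37 (-2.24 to -0.61, from 190 and 15 UMIs) in those with Y-linked and no Xist UMIs. Oprl1, the nociceptin receptor, was at -0.96 (-1.28 to -0.64), from 255 and 123 UMIs. Htr2a was at 0.83 (0.38 to 1.30), with -0.25 in other neurons. Pde10a, a cyclic nucleotide phosphodiesterase, was at 0.98 (0.68 to 1.28), with -0.35 in other neurons. Adra2a stood at -0.31 (-0.47 to -0.15) and Gpr139 at -0.44 (-0.67 to -0.22), where other neurons had -0.38 and -0.51. Of the peptides, Cartpt was at 0.04 and Calcb at 0.82 (0.21 to 1.45), and the rule genes Gal and Tac2 at -0.25 and 0.01. In members with Xist and no Y-linked UMIs Calcb stood at 0.70 (-0.03 to 1.47). In those with Y-linked and no Xist UMIs it stood at 0.71 (-1.38 to 2.43). The level of Calcb in other neurons, given above, was also higher in SD+RS.

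**Figure D4:**
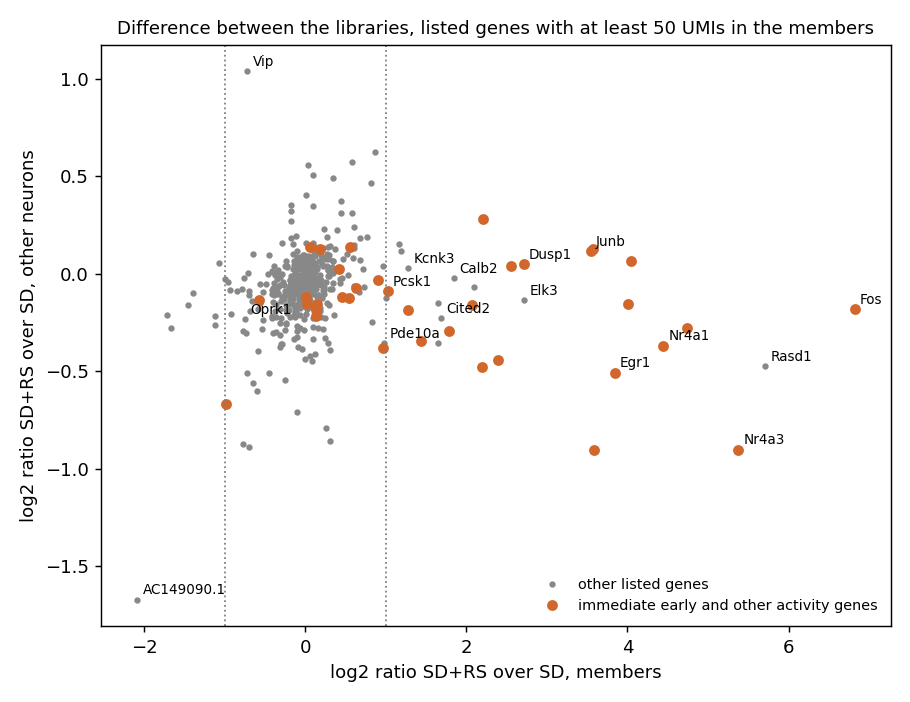
Log2 ratio of SD+RS over SD in the members (x axis) and in all other neurons (y axis), for genes with at least 50 UMIs in the members. Drawn are the listed genes and the genes picked outside the lists for their large ratios, such as Elk3 and Cited2. Orange points are immediate early and other activity genes, grey points all other genes drawn, and dotted lines mark 2-fold. Nr4a3, with 0 UMIs in SD members, is drawn at the bound set by 3 counts. Fos, Rasd1 and Nr4a3 lie farthest right, and most grey points lie between the dotted lines.

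The spread among members was taken on genes outside the rule. Per 10000 UMIs of a cell, the coefficient of variation over members (SD over mean) was 83.0% and 72.9% for Cartpt and 95.2% and 116% for Nts. It was 37.6% and 50.1% for Adra2a and 37.5% and 45.7% for Zic1, although these have fewer UMIs per cell and so more counting noise. Across cells, Cartpt and Nts had a Pearson's r of 0.15 and -0.04 (72 and 71 cells). The cells of a library share a pool of mice, and these values are descriptions.

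The bases before the start of genes higher in SD+RS members were searched for the full cAMP response element TGACGTCA, the string bound by CREB-type factors, which reads the same on both strands. In the 250 bases before the start it occurred in 478 of 27018 genes (1.77%) of the RefSeq promoter table of GRCm38.p6, in 232 of 6608 matched genes tested in the members (3.51%), in 2 of 47 matched higher genes (4.26%) and in 0 of 30 matched lower genes. The share in the higher genes rests on 2 genes and is near that of all genes tested. Both are printed since 1 is a core gene, Dusp1, a phosphatase that ends MAP kinase signalling (log2 2.71), and the other is Pcsk1 of the peptide path. Each runs 5′ to 3′ on the strand of its gene up to the base before the start, with the element in capitals. It begins 143 bases before the RefSeq start of Dusp1 (chr17:26508473-26508722, minus strand) and 78 bases before that of Pcsk1 (chr13:75089607-75089856, plus strand). A match is a string of letters, not a site shown to be bound.
Dusp1: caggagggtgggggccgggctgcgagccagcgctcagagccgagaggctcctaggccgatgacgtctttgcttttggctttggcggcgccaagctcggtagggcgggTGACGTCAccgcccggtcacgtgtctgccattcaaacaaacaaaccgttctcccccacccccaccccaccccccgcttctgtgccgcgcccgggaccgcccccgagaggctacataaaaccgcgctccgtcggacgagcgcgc
Pcsk1: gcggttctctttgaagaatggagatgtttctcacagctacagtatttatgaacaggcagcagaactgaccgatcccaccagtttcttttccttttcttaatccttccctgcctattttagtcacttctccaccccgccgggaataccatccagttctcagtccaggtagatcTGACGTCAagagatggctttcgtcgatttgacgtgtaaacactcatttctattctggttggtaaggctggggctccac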

How the data were processed

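The files deposited by the authors give whole-number UMI counts of 31054 genes in every barcode called as a cell, with software version 3.0.2 per the file headers. Cell Ranger, Seurat 4.0.4 and build mm10 are named in the submitters' processing notes. The authors' deposited cluster marker tables were not used. Groups came from the treatment label. Members and neurons were found by UMI minimums, with no doublet removal: the Scrublet method, run in scanpy 1.11.5, marked 5.87% and 3.85% of cells, 1 member in each library. UMIs were summed over cells and scaled to CPM, with exact Poisson, Clopper-Pearson and conditional binomial intervals from SciPy 1.17.1 at 95%. A gene was called at 2-fold, in both libraries for identity, with no test and no p-value. Zeros were set to a floor of 3 counts over the summed cells where a fold is given. Thinned shares are the expected share of cells with a UMI at 2000 UMIs, which left out 101 and 84 astrocytes and 3 and 12 oligodendrocytes and no neuron. Astrocytes had at least 5 UMIs of Aqp4, Gja1 and Agt, oligodendrocytes of Mog, Mag and Ermn, and at most 1 of Snap25 and Syt1. Neurons were clustered by Leiden (leidenalg 0.10.2) on 2000 variable genes, 40 components and 20 neighbours. Gene coordinates are from GENCODE vM21, while the printed promoter stretches and their starts are from the RefSeq table of GRCm38.p6. The 2 sources differ in the starts: GENCODE has Dusp1 at chr17:26505590-26562128 and Pcsk1 at chr13:75089826-75134861. Any gene of the lists could be named, and outside them the 10 highest and 10 lowest called genes for identity and 5 and 5 between libraries. Alternatives covered the UMI minimums, the fold, the rule minimums, the reference neurons, doublets and cells of 1 sex. The members and the lists were chosen with earlier results of these data known. The scripts were tested on simulated data. Some genes of the lists enter the counts but are not reported here by name.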

Additional observations from a re-analysis of the deposited data

Results flagged for a closer look

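The mice are described as wild type, yet the deposited gene list holds a YFP sequence, and it had UMIs in both libraries, a measurement no comparison above uses. Over all barcodes there were 5685 YFP UMIs in SD and 242 in SD+RS. The members held 65 of these in 5 of 72 cells in SD and 36 in 4 of 71 cells in SD+RS, with 28 and 16 in the highest cell. The other neurons with a YFP UMI were 5.45% in SD and 0.539% in SD+RS. Where the YFP RNA came from was not tested.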

How the results depend on the processing

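Identity counts (247 higher, 619 lower) became 548 and 1093 at 1.5-fold, 76 and 306 at 4-fold, and the lower count became 1198 at a minimum of 5 UMIs and 341 at 50. Of the 247 higher genes, 232 were also called against GABA-type neurons alone, 235 with doubled minimums of the 4 rule genes and 203 in cells with Xist and no Y-linked UMIs. In those last cells the genes lower than in Gal-rich neurons numbered 296 in place of 510. Counts between libraries (66 higher, 31 lower) became 173 and 175 at a minimum of 20 UMIs, 32 and 12 at 100, and 268 and 305 at 1.5-fold, and the lower count 53 with looser members. The core gene ratio stayed between 3.88 and 4.10 over its alternatives. Thinned shares depended on depth: Fos 0.410% and 33.5% at 2000 UMIs, 60.9% in SD+RS at 5000 and 6.94% and 93.0% without thinning; Adra2a 45.0% and 37.0%, then 76.5% and 66.7%, then 98.6% and 97.2%. Of 2406 values of named genes against other neurons, 2252 stayed within the interval of the main value and 154 did not, none to the other sign. Of 297 between libraries, 285 stayed within it, 11 did not and 1 changed sign, Calb2 (-0.26, looser members). Both totals include the settings that change only the UMI minimum or the fold. Those settings leave the ratio of a gene as it is, so their values stayed by construction and say nothing about robustness. Slc17a6 against GABA-type neurons was left out, since those have none by choice. Restricting members to their cluster was added after seeing the data. No paired analysis was possible because each group is 1 library. The limits are 1 library and an unknown number of mice in each group, an uneven share of male cells, members chosen on the genes of the same cells, and depth. Depth leaves receptors with under 1 UMI per cell as shares of cells with a UMI rather than of cells that express them. SD+RS had 2 h of recovery after the same 6 h of deprivation, so the hour of collection may also differ between the groups, which was not tested.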
